A study of Mus musculus with 27 samples.

Results

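The mRNAs of 10 plasma proteins made by hepatocytes were followed across the series. They were Alb, Ttr, Ahsg, Rbp4, Gc and the serpin genes Serpina1a, Serpina1b, Serpina1c, Serpina1d and Serpina1e. The members were the rows of the count table whose Ensembl identifier belongs to one of these symbols, 10 of 55414 genes, and this rule used no measured value. The series compared whole livers of female Balb/c mice, 8 weeks old, with and without injury by carbon tetrachloride (CCl4) over 2 weeks, by poly-A RNA sequencing of 27 mice in 8 groups. It asked how the livers respond to 4-methylumbelliferone (4MU), an inhibitor of hyaluronic acid synthesis, and to an siRNA against hyaluronan synthase 2.

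The control group (4 mice) received oil intraperitoneally and PBS in the tail vein. The 4MU group (3 mice) received oil and 4MU at 600 mg/kg by gavage. The siLuc-LNP group (3 mice) received oil and lipid nanoparticles with an siRNA against luciferase, which mice do not have. The siHAS2-LNP group (3 mice) received oil and nanoparticles with the siRNA against Has2. Both siRNAs were given at 1 mg/kg first and 0.5 mg/kg afterwards. By the methods, 4MU and both siRNAs were started before the first CCl4 injection. The remaining groups received intraperitoneal CCl4 alone (CCl4, 2 mice), or with 4MU (CCl4 + 4MU, 4 mice), siLuc-LNP (CCl4 + siLuc-LNP, 4 mice) or siHAS2-LNP (CCl4 + siHAS2-LNP, 4 mice). The labels name no vehicle for the mice given CCl4 alone, and no tail vein injection for the 4MU groups, so the arms differ in handling as well as in agent. The methods add a carboxymethyl cellulose gavage for control mice, which the labels do not name. Here an arm is a treated or untreated pair of groups that differ in CCl4. Libraries held 7044386 to 29425937 counts, and the lowest count of any member in any library was 611. Has2, the target of the siRNA, had 0 counts in 25 of 27 libraries and at most 2, so its knockdown could not be checked.

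The members lie on 5 chromosomes in GRCm39. Alb (ENSMUSG00000029368) occupies chr5:90608647-90624696 on the plus strand and Gc (ENSMUSG00000035540) chr5:89561689-89605757 on the minus strand. Ahsg (ENSMUSG00000022868) occupies chr16:22710027-22718201 on the plus strand, Rbp4 (ENSMUSG00000024990) chr19:38105066-38113754 on the minus strand, and Ttr (ENSMUSG00000061808) is on chromosome 18. The Serpina1 genes follow each other on the minus strand of chromosome 12, Serpina1b at 103694413-103796632, Serpina1d at 103729614-103739899, Serpina1a at 103819554-103832088, Serpina1c at 103860950-103871181 and Serpina1e at 103913187-103925234. The annotated span of Serpina1b contains that of Serpina1d, but no exon base is shared between any of the 5 genes.

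Hepatocytes secrete most of the protein in blood plasma. Albumin keeps plasma in the vessels and carries fatty acids and drugs, transthyretin (Ttr) carries thyroid hormone and binds the retinol carrier Rbp4, Gc carries vitamin D, and fetuin-A (Ahsg) binds calcium phosphate in blood. The Serpina1 genes encode forms of alpha-1 antitrypsin, known as an inhibitor of neutrophil elastase, which mice, unlike humans, carry in several tandem copies. The coding sequences of these copies differ, as printed below. Which of the copies inhibit elastase was not tested, so their mRNA levels do not measure elastase inhibition. Liver transcription factors such as HNF1, HNF4 and C/EBP drive these genes, and the synthesis of albumin and transthyretin is known to fall in acute inflammation.

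A binding half-site of HNF1, searched as GTTAAT on both strands, lay in the promoter window of 7 of 9 members searched, against 7.1% of 32851 RefSeq promoter windows of 300 bases (250 before and 50 after the start site, GRCm38.p6). It was present in Alb, Gc and all 5 Serpina1 genes and was not found in Ahsg or Rbp4; Ttr was not searched. Whether HNF1 binds there in these livers, or plays a part in the levels of these genes, was not tested. The stretches that hold the half-site are printed 5′ to 3′ with the half-site in capitals.
Alb, chr5:90460811-90460869, plus strand: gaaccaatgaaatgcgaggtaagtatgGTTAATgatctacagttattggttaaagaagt
Gc, chr5:89457918-89457977, minus strand: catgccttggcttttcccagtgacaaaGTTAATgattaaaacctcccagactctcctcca
Serpina1a, chr12:103863620-103863667, minus strand: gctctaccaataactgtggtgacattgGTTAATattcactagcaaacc
Serpina1b, chr12:103738190-103738242, minus strand: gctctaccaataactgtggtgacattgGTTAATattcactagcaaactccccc
Serpina1c, chr12:103904951-103905004, minus strand: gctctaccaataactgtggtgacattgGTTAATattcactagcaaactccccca
Serpina1d, chr12:103773634-103773676, minus strand: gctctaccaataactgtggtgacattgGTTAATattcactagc
Serpina1e, chr12:103956943-103957002, minus strand: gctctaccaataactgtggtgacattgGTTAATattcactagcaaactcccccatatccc
The first 43 bases are the same in all 5 Serpina1 stretches. These genes are tandem copies, so the 7 finds are not independent, and 7 of 9 does not measure an enrichment. The half-site begins 32 bases before the annotated start site in Alb, 52 in Gc, and 16 to 78 in the Serpina1 genes. These coordinates are of the older build and are not comparable with the gene positions above.

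The 5 coding sequences are equally long, 1242 bases, and pairs of them are between 96.3% and 98.5% identical. Serpina1a and Serpina1c are the closest pair, with 19 differing bases. Across the 5 copies 86 positions vary, and 18 of them fall within the 60 bases of the last exon (exon 5) that vary most, coding positions 1101 to 1160. Reads can tell the copies apart at varying positions, most of which lie outside these 60 bases. The stretches of 60 bases are printed with the varying positions in capitals (GRCm39, minus strand).
Serpina1a, chr12:103820016-103820075: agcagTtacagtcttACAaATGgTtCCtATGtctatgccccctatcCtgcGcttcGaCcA
Serpina1b, chr12:103694583-103694642: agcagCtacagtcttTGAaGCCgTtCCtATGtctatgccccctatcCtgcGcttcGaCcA
Serpina1c, chr12:103861353-103861412: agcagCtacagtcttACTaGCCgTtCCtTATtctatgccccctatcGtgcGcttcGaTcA
Serpina1d, chr12:103730021-103730080: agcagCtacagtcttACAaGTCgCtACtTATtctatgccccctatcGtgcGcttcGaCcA
Serpina1e, chr12:103913359-103913418: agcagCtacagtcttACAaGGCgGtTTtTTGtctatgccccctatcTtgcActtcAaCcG
Read pairs that mapped to several places were not counted. Of all stretches of 85 bases in the main transcript, 72.3% of those of Serpina1c also occur in transcripts of other genes, against 56.5% for Serpina1a, 40.4% for Serpina1b, 27.6% for Serpina1d and 20.0% for Serpina1e. The corresponding shares were 0.0% for Alb and Ttr, 2.85% for Gc, 14.8% for Rbp4 and 15.7% for Ahsg. Rbp4 shared its stretches with Ffar4 only and Ahsg with Gm60715 only. Transcripts were compared by sequence, without position, so overlapping annotation at the same place counts like a copy elsewhere. The shares also ignore that reads are paired, so they do not measure how many pairs were lost. The levels of the Serpina1 genes relative to each other are therefore uncertain, and the reads came from Balb/c mice while the reference is C57BL/6J. The part that strain differences play in the counts was not tested.

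The 10 mRNAs together made up 10.5% to 18.7% of the counts of a library. Albumin alone took 7.67% to 15.4%. In control livers, per kilobase of main transcript, the level of Alb was 72236 ± 8993 CPM (counts scaled to library depth with TMM factors, SD, n = 4), which was 72.4% of the sum of the 10. Ahsg followed at 7209 ± 651 CPM per kilobase, then Ttr at 5848 ± 1320, Gc at 5038 ± 230, Serpina1b at 3812 ± 348 and Rbp4 at 3146 ± 66.3. Serpina1a stood at 1509 ± 271, Serpina1c at 743 ± 258, Serpina1d at 156 ± 87.0 and Serpina1e at 78.5 ± 28.5 CPM per kilobase. The order within the Serpina1 genes carries the uncertainty just given. The remaining levels are CPM, not per length, and compare 1 gene across mice.

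**Figure D1:**
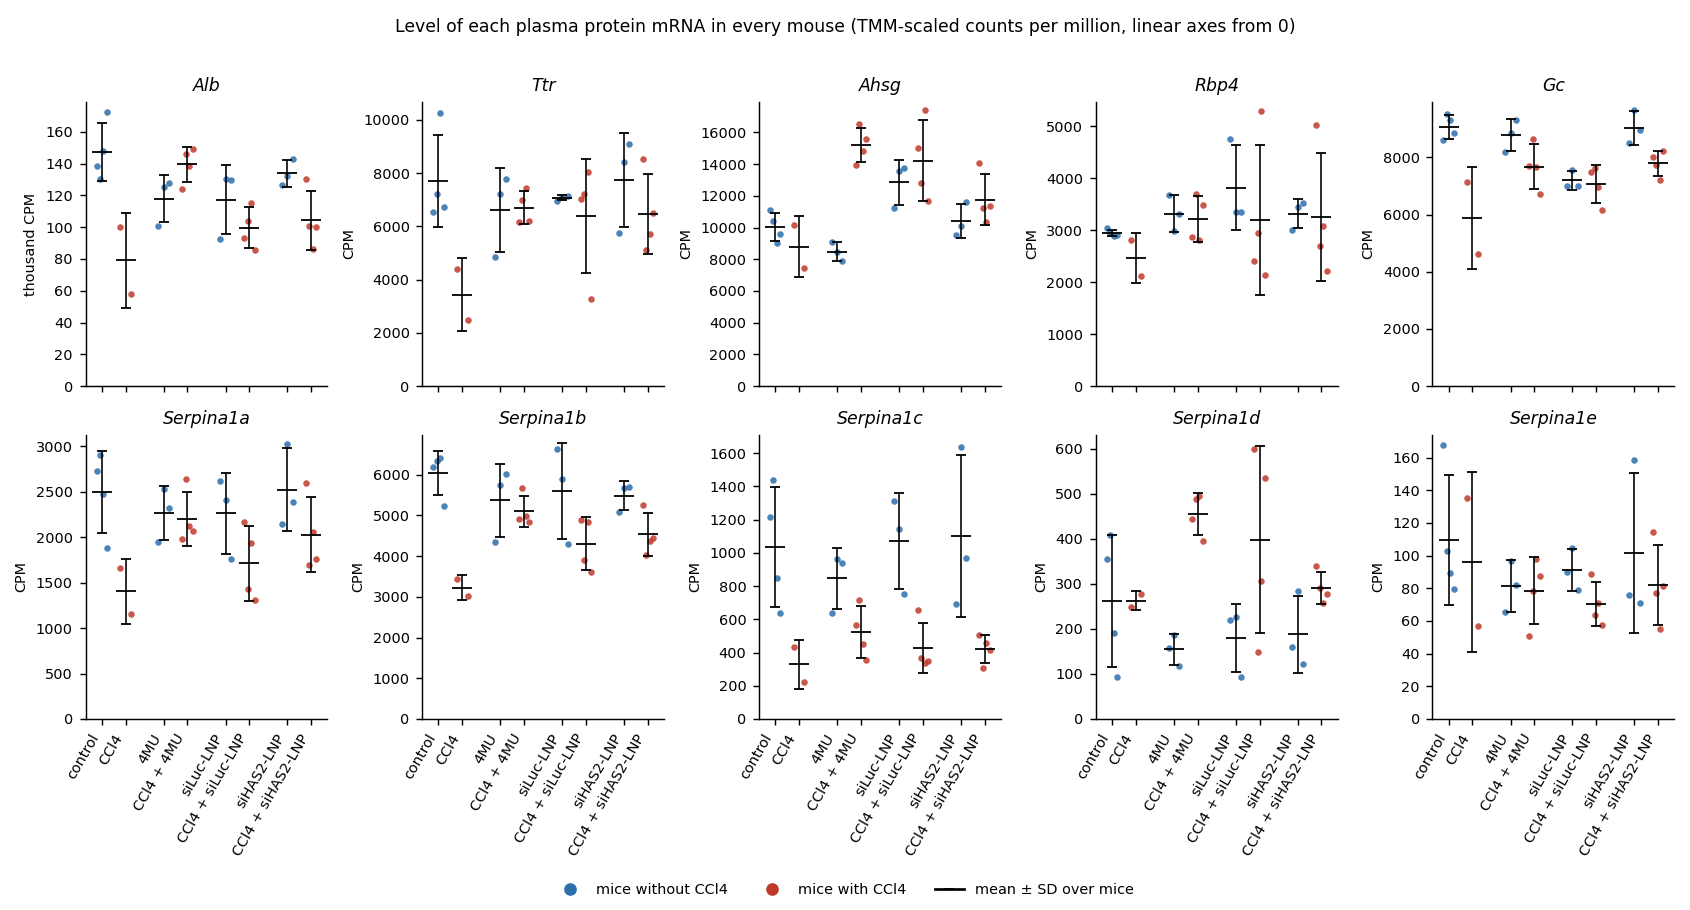
Level of each of the 10 mRNAs in every mouse (vertical axes, CPM after TMM scaling, all from 0, with Alb on a larger unit as its axis states) by group. Points are mice, blue without and red with CCl4, and black bars are the mean ± SD. By group mean, Alb, Ttr, Gc, Serpina1a and Serpina1b are lowest with CCl4 alone, Serpina1c is lower with CCl4 in every arm, and Serpina1d is highest in CCl4 + 4MU.

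In the plainest comparison, CCl4 alone against control, 6 of 10 members fell and none rose (edgeR quasi-likelihood test, Benjamini-Hochberg adjusted p under 0.05 over 14114 genes). Of all genes tested, 34.0% passed in either direction and 16.1% fell. The median log2 fold change of the members was -0.73, against -0.02 over all genes tested. In bulk liver, fewer hepatocytes and less of an mRNA per hepatocyte cannot be told apart.

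Albumin stood at 138743, 130252, 148011 and 172725 CPM in the 4 control mice and at 100405 and 58085 CPM in the 2 CCl4 mice. The groups did not overlap, and the second CCl4 mouse was far below the first. The log2 fold change of Alb was -0.90 (SE 0.26, adjusted p = 0.0105, edgeR). Ttr, the thyroid hormone carrier, stood at 6557, 7227, 10266 and 6733 CPM in control and at 4402 and 2476 CPM in CCl4, again without overlap. It fell by 1.16 on the log2 scale (SE 0.32, adjusted p = 0.00705, edgeR). Gc, the vitamin D carrier, read 8613, 9511, 9323 and 8848 CPM in control and 7147 and 4618 CPM in CCl4 (log2 fold change -0.63, SE 0.18, adjusted p = 0.0103, edgeR).

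The Serpina1 genes split. Serpina1b, the most abundant copy, read 6186, 6333, 6420 and 5227 CPM in control and 3442 and 3011 CPM in CCl4, a fall to 0.534 of control (adjusted p = 0.00143, edgeR). Serpina1a read 2732, 2909, 2474 and 1882 CPM in control and 1659 and 1151 CPM in CCl4 (log2 fold change -0.83, adjusted p = 0.0135, edgeR). Serpina1c read 1218, 1437, 848 and 640 CPM in control and 434 and 223 CPM in CCl4, 0.317 of control (adjusted p = 0.00268, edgeR), the lowest ratio of the 10. Serpina1d and Serpina1e did not pass, at log2 fold changes of 0.01 and -0.19, nor did Ahsg at -0.19 or Rbp4 at -0.26. In Rbp4 the groups did not overlap all the same, with 3034, 2950, 2892 and 2916 CPM in control and 2812 and 2127 CPM in CCl4.

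These calls rest on 2 mice given CCl4 alone. With library totals in place of TMM factors the median of all genes was 0.39 and that of the members -0.34, and Gc and Serpina1a were no longer called. With no low-count filter Alb (adjusted p = 0.108, edgeR) and Gc (adjusted p = 0.172) were lost. Without CCl4 mouse 2 only Serpina1b was called, Alb had a log2 fold change of -0.53 and Serpina1c of -1.23. A fit of these 2 groups alone called 3 members (Ttr, Serpina1b and Serpina1c). Among all genes it called 4195, against 4805 (34.0%) in the fit of all groups. These 3 calls therefore do not set the members apart from all genes. Other hepatocyte mRNAs moved with the members: the summed level of 12 other hepatocyte markers was 22006 to 28735 CPM in control and 10302 to 16444 CPM in CCl4, and 7 of the 12 fell and none rose. The sum of 10 stellate cell and myofibroblast markers was 245 to 351 CPM in control and 855 to 1205 CPM in CCl4, and no marker of either list was at 0 in these groups. Their part in the members' fall was not tested.

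With 4MU, siLuc-LNP or siHAS2-LNP on both sides of the comparison, Alb, Ttr and Gc did not pass the test. In the siHAS2-LNP arm Gc did not overlap all the same, at 8496 to 9667 CPM without and 7220 to 8210 CPM with CCl4. CCl4 + 4MU against 4MU called 2 members, both higher, with 23.7% of all genes called. Ahsg, the calcium phosphate binder, read 9081, 8453 and 7910 CPM in the 4MU mice and 13952, 16514, 14802 and 15553 CPM in CCl4 + 4MU, without overlap. It rose 1.79-fold (log2 fold change 0.84, SE 0.18, adjusted p = 0.0013, edgeR). Serpina1d read 158, 188 and 118 CPM in 4MU and 444, 490, 495 and 395 CPM in CCl4 + 4MU, again without overlap, and rose 2.95-fold (log2 fold change 1.56, SE 0.43, adjusted p = 0.0108, edgeR). Without 4MU mouse 3 its adjusted p was 0.0621. Albumin in the same arm read 101067, 125171 and 127641 CPM in 4MU and 124066, 146254, 138540 and 149049 CPM in CCl4 + 4MU, overlapping (log2 fold change 0.24, 95% interval -0.22 to 0.70). Serpina1c overlapped in this arm as well and did not pass (log2 fold change -0.70, adjusted p = 0.1225, edgeR).

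CCl4 + siLuc-LNP against siLuc-LNP called 1 member, with 24.2% of all genes called. Serpina1c fell from 1314, 1147 and 749 CPM to 654, 366, 340 and 347 CPM (log2 fold change -1.33, SE 0.33, adjusted p = 0.00423, edgeR), and no mouse given CCl4 reached the lowest of the others. Serpina1d stood at 220, 227 and 93.3 CPM without and 600, 150, 307 and 536 CPM with CCl4, a log2 fold change of 1.14 with an adjusted p of 0.0517, just outside the threshold. Without siLuc-LNP mouse 3, Serpina1b was called as well, and without CCl4 + siLuc-LNP mouse 2 or 3, Serpina1d. CCl4 + siHAS2-LNP against siHAS2-LNP also called Serpina1c alone, with 12.8% of all genes called. It read 693, 1639 and 972 CPM without and 506, 306, 459 and 416 CPM with CCl4 (log2 fold change -1.38, SE 0.33, adjusted p = 0.00584, edgeR), again without overlap, and its adjusted p was 0.0822 without siHAS2-LNP mouse 2.

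Averaged over the 4 arms, CCl4 changed 8 of 10 members, 2 higher and 6 lower. Over all genes tested 51.9% were called, 26.3% higher and 25.6% lower. The median log2 change of the members was -0.29, against -0.02 over all genes. Serpina1c fell furthest, by 1.27 on the log2 scale (SE 0.17, adjusted p = 1.48e-06, edgeR), to 0.416 of the level without CCl4, and 12 of the 14 mice given CCl4 were below all 13 others. Serpina1d rose by 0.84 (SE 0.22, adjusted p = 0.00225, edgeR), or 1.79-fold, and 5 of the 14 mice were above all others. Ahsg rose by 0.24 (SE 0.09, adjusted p = 0.0281, edgeR), with 7 of 14 mice above all others and 1 below. The fallers were Serpina1b at -0.41, Serpina1a at -0.40, Ttr at -0.39, Alb at -0.31 and Gc at -0.27 (adjusted p from 0.000522 to 0.0255, edgeR). Rbp4 at -0.15 and Serpina1e at -0.23 did not pass.

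**Figure D2:**
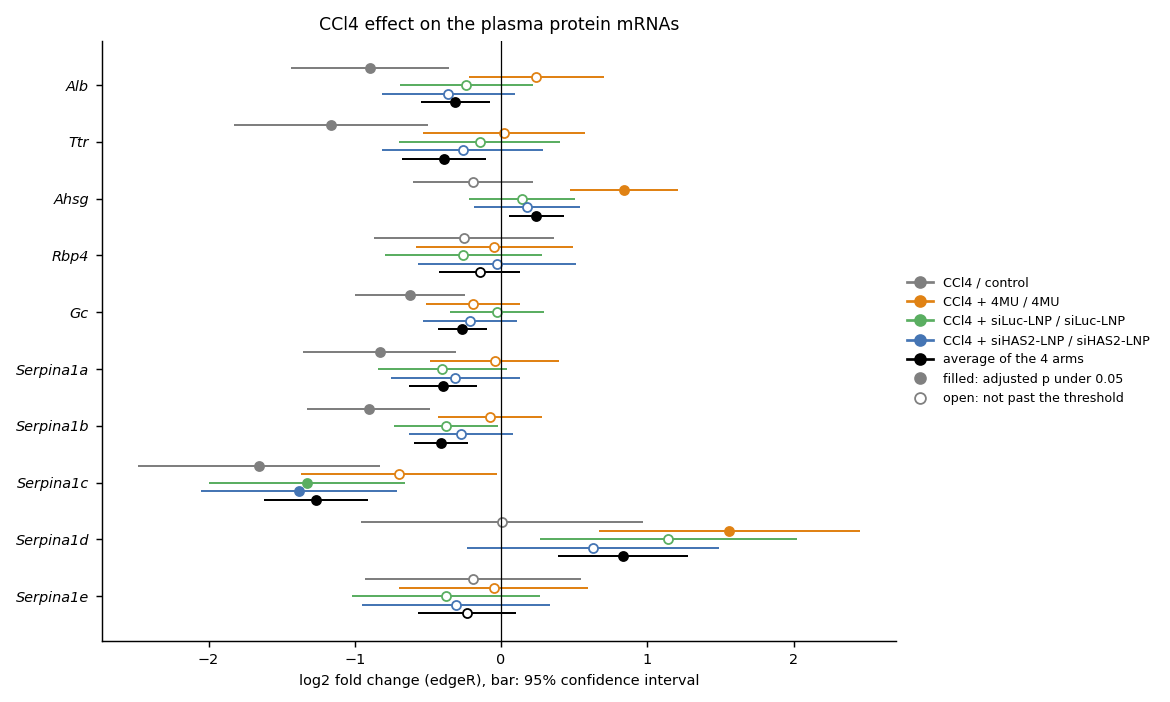
Log2 fold change (horizontal axis) of each mRNA with against without CCl4, in each of the 4 arms (colours) and averaged (black), with 95% confidence intervals. Filled points passed the adjusted threshold of 0.05. Serpina1c is left of 0 in every arm, Serpina1d is right of 0 in the 3 treated arms, and Alb, Ttr and Gc are furthest left in the untreated arm.

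Most of these falls depended on the untreated arm. Averaged over the 3 treated arms alone, a choice made after the data were seen, 3 members passed: Ahsg at 0.39 (adjusted p = 0.00404, edgeR), Serpina1c at -1.13 (adjusted p = 3.23e-05) and Serpina1d at 1.12 (adjusted p = 0.00038). Alb was then at -0.12, Ttr at -0.13, Gc at -0.14, Serpina1a at -0.25 and Serpina1b at -0.24, none past the threshold. The share of all genes called in this 3-arm average is not given here, so its 3 calls have no share to stand against. In the single treated arms, 12.8% to 24.2% of all genes were called. The rise of Ahsg likewise depended on 1 arm. Taken arm by arm, Ahsg passed with 4MU only, at 0.84. It was at 0.14 with siLuc-LNP (adjusted p = 0.591, edgeR), 0.17 with siHAS2-LNP (adjusted p = 0.568, edgeR) and -0.19 untreated. Without CCl4 mouse 2 the 4-arm average of Alb was -0.22 (adjusted p = 0.106, edgeR) and of Ttr -0.30 (adjusted p = 0.103). The call of Ahsg was lost without CCl4 mouse 1 (adjusted p = 0.0827), siHAS2-LNP mouse 1 (0.0519) or siLuc-LNP mouse 1 (0.0535), and Serpina1e was called without CCl4 mouse 1 (adjusted p = 0.0457). Library totals in place of TMM factors moved the median of all genes in this average from -0.02 to 0.16 and left 4 members called, Ahsg, Serpina1b, Serpina1c and Serpina1d.

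A ratio of 2 members within a library needs no scaling between libraries. Of 10 ratios tested (each other member to Alb, and Ttr to its partner Rbp4), 3 changed with CCl4 (exact permutation test of mice within the arms, 643125 arrangements, two-sided, adjusted over the 10). The ratio of Ahsg to Alb rose 1.47-fold (log2 0.56, adjusted p = 1.55e-05), and its unadjusted p of 1.55e-06 is the smallest these arrangements can give. It was higher with CCl4 in 4 of 4 arms, by 0.74 untreated, 0.60 with 4MU, 0.36 with siLuc-LNP and 0.54 with siHAS2-LNP on the log2 scale. A ratio also moves with its denominator. Untreated, Ahsg itself was at -0.19 and Alb at -0.90 (edgeR log2 fold changes), and with 4MU at 0.84 and 0.24. With siLuc-LNP they were at 0.14 and -0.24, and with siHAS2-LNP at 0.17 and -0.36. The ratio of Serpina1c to Alb fell to 0.522 (log2 -0.94, adjusted p = 0.000568, exact permutation test), and that of Serpina1d to Alb rose 2.33-fold (log2 1.22, adjusted p = 0.00105, exact permutation test), each in 4 of 4 arms. For the other 7, log2 changes ran from -0.22 (Ttr to Rbp4) to 0.14 (Rbp4 to Alb), with adjusted p from 0.458 to 0.651 (exact permutation test). No mouse left out and no other setting moved the 3 calls.

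**Figure D3:**
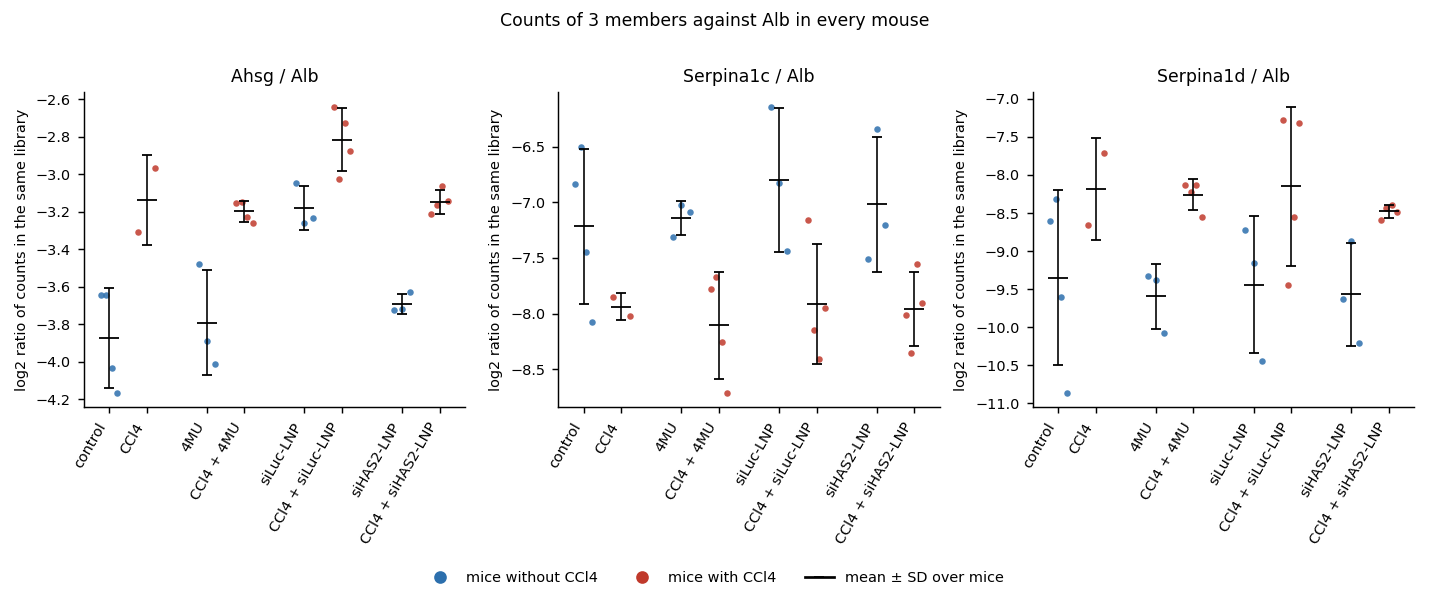
Log2 ratio of the counts of Ahsg, Serpina1c and Serpina1d to those of Alb in the same library (vertical axes) by group. Points are mice, blue without and red with CCl4, and black bars are the mean ± SD. In each arm the red mean of Ahsg and Serpina1d is above the blue one, and that of Serpina1c is below it.

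The make-up of the Serpina1 mRNA moved with CCl4 as well. Serpina1c held 8.08% to 15.2% of the summed Serpina1 CPM in the 13 mice without CCl4 and 4.54% to 7.79% in the 14 mice with it, so that every mouse given CCl4 was below every other mouse. Serpina1d held 1.17% to 3.65% without and 2.53% to 9.15% with CCl4, overlapping. Serpina1b held 52.6% to 66.0% and Serpina1a 23.8% to 28.1% without CCl4, and 58.1% to 66.0% and 22.3% to 29.5% with it. Against the other 4 copies summed, the ratio of Serpina1c fell to 0.533 (adjusted p = 7.77e-06) and that of Serpina1d rose 2.58-fold (adjusted p = 1.17e-05), while Serpina1a, Serpina1b and Serpina1e ran from 1.02-fold to 1.14-fold (adjusted p from 0.384 to 0.44; exact permutation test within the arms, 5 ratios, added after the data were seen). Within groups the 2 copies deviated together (r = 0.61 between Serpina1c and Serpina1d over the 27 libraries after group means were removed, a description), although CCl4 moved them apart. The part that uncounted shared reads play in this shift was not tested.

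**Figure D4:**
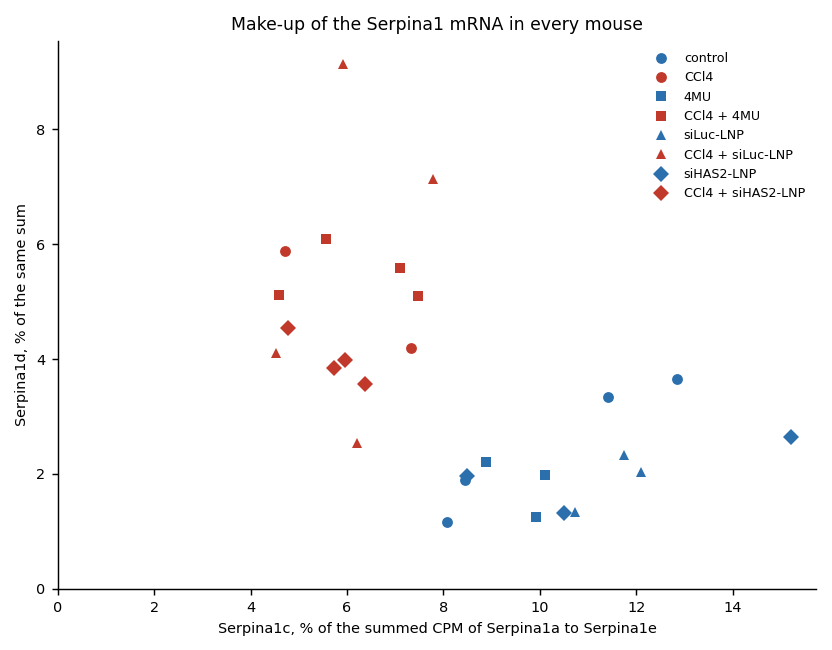
Share of Serpina1c (horizontal axis, %) and of Serpina1d (vertical axis, %) in the summed CPM of the 5 Serpina1 genes in each of 27 mice, with arms as symbols, blue without and red with CCl4. The blue and red mice separate fully along the horizontal axis, at 8.08% to 15.2% against 4.54% to 7.79%.

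The next comparisons set the treated fibrotic livers against CCl4 alone, and all 3 share its 2 mice. CCl4 + 4MU against CCl4 called 4 members, all higher, with 18.3% of all genes called and 8.28% higher. Alb rose 1.76-fold (log2 fold change 0.82, SE 0.26, adjusted p = 0.0317, edgeR), with the values of both groups as given above. Ttr at 6172, 7003, 7423 and 6201 CPM rose 1.95-fold (adjusted p = 0.0367), and Ahsg 1.73-fold (adjusted p = 0.0107). Serpina1b at 4920, 5673, 4978 and 4834 CPM rose 1.58-fold (adjusted p = 0.0255). Each of these groups lay wholly above the CCl4 mice. Without CCl4 mouse 2 no member was called, without CCl4 + 4MU mouse 2 only Ahsg, and without CCl4 + 4MU mouse 4 only Ahsg and Serpina1b. A fit of the 2 groups alone called Serpina1d and none of these 4, at log2 fold changes of 0.80 for Alb, 0.95 for Ttr, 0.78 for Ahsg and 0.65 for Serpina1b (adjusted p from 0.0554 to 0.118, edgeR). Of the 12 other hepatocyte markers 8 rose and 0 fell in the same comparison, with sums of 22257 to 26977 CPM against 10302 to 16444 CPM, and their part in the members' rise was not tested.

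CCl4 + siLuc-LNP against CCl4 called 0 members (0.248% of all genes, edgeR), with 3 at an unadjusted p under 0.05, 1 by DESeq2 and 0 by limma. CCl4 + siHAS2-LNP against CCl4 called 0 members (14.4% of all genes, edgeR), with 5 at an unadjusted p under 0.05, 2 by DESeq2 and 0 by limma. The log2 fold changes of Alb were 0.33 (95% interval -0.20 to 0.85) with siLuc-LNP and 0.40 (-0.13 to 0.92) with siHAS2-LNP, and those of Ttr 0.89 (0.24 to 1.54) and 0.91 (0.26 to 1.56). Alb read 93498, 103949, 115277 and 85509 CPM in CCl4 + siLuc-LNP and 130442, 100567, 86445 and 100075 CPM in CCl4 + siHAS2-LNP. Both sets overlapped that of CCl4 alone, and the highest CCl4 + siHAS2-LNP mouse just reached the lowest control mouse. Without CCl4 + siLuc-LNP mouse 4, Ttr and Ahsg were called in the first comparison. In the second, Ttr and Gc were called without CCl4 mouse 1, and Ttr without CCl4 + siHAS2-LNP mouse 2.

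**Figure D5:**
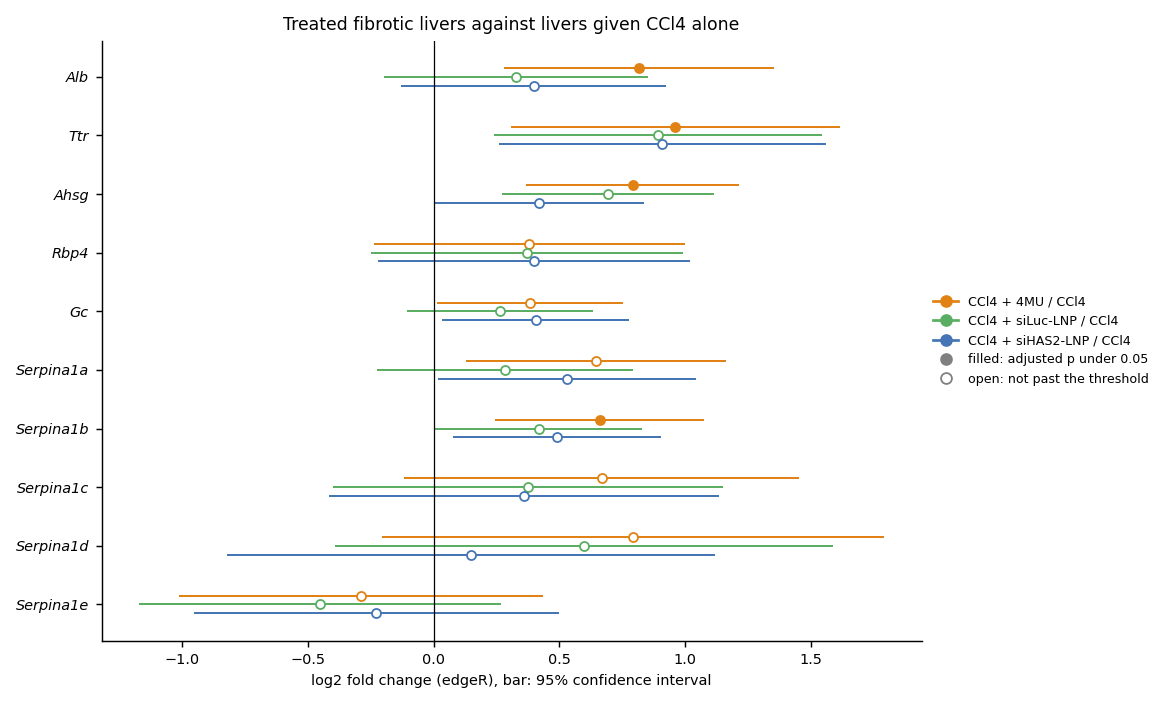
Log2 fold change (horizontal axis) of each mRNA in fibrotic livers given 4MU, siLuc-LNP or siHAS2-LNP against livers given CCl4 alone, with 95% confidence intervals. Filled points passed the adjusted threshold of 0.05. Filled points appear for CCl4 + 4MU only, in Alb, Ttr, Ahsg and Serpina1b, and all intervals overlap those of the other treatments for the same gene.

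The treated fibrotic groups were compared directly in 2 pairs, and CCl4 + 4MU was not tested against CCl4 + siLuc-LNP. CCl4 + siHAS2-LNP against CCl4 + siLuc-LNP called 0 members (1.09% of all genes, edgeR), 0 at an unadjusted p under 0.05, and 0 by DESeq2 or limma, with log2 fold changes from -0.45 (Serpina1d) to 0.25 (Serpina1a). CCl4 + 4MU against CCl4 + siHAS2-LNP called 0 (1.22% of all genes, edgeR), 1 at an unadjusted p under 0.05, and 0 by DESeq2 or limma. Ahsg was that gene, at a log2 fold change of 0.37 (95% interval 0.04 to 0.71, adjusted p = 0.217, edgeR), and read 14057, 11204, 10354 and 11347 CPM in CCl4 + siHAS2-LNP. Alb was at 0.42 (95% interval -0.01 to 0.84), and a fit of the 2 groups alone called Serpina1d.

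Without CCl4, 3 comparisons were made, and no other pair of these groups was tested. 4MU against control called 0 (0.00709% of all genes, edgeR), 0 at an unadjusted p under 0.05, and 0 by DESeq2 or limma, with Alb at a log2 fold change of -0.32 (95% interval -0.78 to 0.14). siLuc-LNP against control called 0 (0.213% of all genes, edgeR), 1 at an unadjusted p under 0.05 (Gc, -0.33), and 0 by DESeq2 or limma. siHAS2-LNP against siLuc-LNP called 0 (0.0425% of all genes, edgeR), 0 at an unadjusted p under 0.05, and 0 by DESeq2 or limma. The intervals leave room for changes of a size that passed elsewhere, such as -1.63 to 0.11 for Serpina1d with 4MU.

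The CCl4 effect itself differed between arms in 2 members. The interaction of 4MU with CCl4, the difference between the CCl4 effect with and without 4MU, passed for Alb (log2 1.14, SE 0.34, adjusted p = 0.0495, edgeR) and Ahsg (log2 1.04, SE 0.27, adjusted p = 0.0319, edgeR), with 5.67% of all genes called. Both adjusted p-values lie near the threshold. Of the fits that left out a mouse, Alb was called only in that without CCl4 mouse 1, and Ahsg was lost without control mouse 1 or 2, 4MU mouse 2 or 3, CCl4 mouse 2, or CCl4 + 4MU mouse 1, 2 or 4. Without CCl4 mouse 2 Alb was at 0.77 (adjusted p = 0.297, edgeR) and Ahsg at 0.80 (adjusted p = 0.207), while in the other fits that lost the call Alb stayed at 1.03 to 1.20 and Ahsg at 0.97 to 1.07. The interaction of siLuc-LNP with CCl4 called 0 members (0.00709% of all genes, edgeR), 2 at an unadjusted p under 0.05, and 0 by DESeq2 or limma. That of siHAS2-LNP, measured against siLuc-LNP, called 0 (0.0354% of all genes, edgeR), 0 at an unadjusted p under 0.05, and 0 by DESeq2 or limma.

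With all mice included, Rbp4 and Serpina1e passed in none of these comparisons. Rbp4 means ran from 2470 CPM in CCl4 to 3819 CPM in siLuc-LNP, and its highest and lowest mice were both fibrotic, at 5291 CPM in CCl4 + siLuc-LNP mouse 3 and 2127 CPM in CCl4 mouse 2. Serpina1e, the scarcest member, had means from 70.2 CPM in CCl4 + siLuc-LNP to 110 CPM in control. In the order of group means, neighbours overlapped in their ranges for every member except Rbp4 and Serpina1b, where the last group, CCl4, lay below the group next to it.

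The other genes of the pathway followed in part. Afp, the fetal albumin relative that regrowing liver re-expresses, read 2.48 to 6.27 CPM without and 51.5 to 414 CPM with CCl4, a log2 rise of 4.70 (SE 0.24, adjusted p = 4.64e-14, edgeR). Afm, the vitamin E carrier of the same family, fell by 0.34 (SE 0.07, adjusted p = 0.000352, edgeR), from 512 to 636 CPM down to 305 to 532 CPM. Of 29 other hepatocyte plasma proteins 3 rose and 17 fell in the 4-arm average, led by the paraoxonase Pon1 (-1.68), the apolipoprotein Apoa2 (-1.55) and, upward, transferrin Trf (0.39) and Itih2 (0.23). Of 19 positive acute-phase proteins 4 rose, with Saa3 (1.98) and Lcn2 (1.28) first, and 8 fell, with Crp (-0.66) and the iron hormone Hamp (-2.03) first. These counts, and those of the lists that follow, stand against 26.3% of all genes higher and 25.6% lower in this average.

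Of 13 liver-enriched transcription factors 0 rose and 4 fell, with Cebpa (-0.65) and Nr5a2 (-0.33) having the smallest adjusted p. Of 18 genes of the secretory pathway 9 rose and 0 fell, led by the disulfide isomerases Pdia6 (0.69) and P4hb (0.48). Among 8 genes that handle retinol and thyroid hormone 2 rose, among them the retinol enzyme Bco1 (0.83), and 4 fell, with the thyroxine carrier Serpina7 (-1.76) and Stra6l (-0.34) first. In CCl4 + 4MU against CCl4, 15 of the 29 other plasma proteins rose and 0 fell, and 12 of the 18 secretory genes fell and 0 rose. These 2 counts stand against the shares of that comparison. Of all 14114 genes 2580 were called in either direction (18.3%). Of these, 1168 were higher (8.28% of all genes) and the rest lower.

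Markers of cells moved with the same mice in the 4-arm average. Of 12 other hepatocyte markers 1 rose (Cps1, 0.79) and 7 fell (Cyp2e1, -2.83, and Asgr2, -0.93, first), with sums of 21266 to 28735 CPM without and 10302 to 26977 CPM with CCl4. Of 10 stellate cell and myofibroblast markers 8 rose (Col1a1, 4.06, and Col1a2, 3.02, first) and 1 fell (Dcn, -0.46), with sums of 245 to 462 CPM without and 390 to 1446 CPM with CCl4. Of 10 Kupffer cell and macrophage markers 4 rose (Cd68, 1.41, and Cd14, 1.26, first) and 4 fell (Timd4, -1.42, and Clec4f, -1.07, first), with sums of 203 to 616 CPM without and 219 to 731 CPM with CCl4. Of 8 endothelial markers 5 rose (Lyve1, 1.08, and Flt4, 0.84, first) and 1 fell (Stab2, -0.59), with sums of 57.7 to 151 CPM without and 68.2 to 158 CPM with CCl4. Of 6 bile duct markers tested 5 rose (Spp1, 2.43, and Krt7, 1.58, first), with sums of 30.1 to 77.5 CPM without and 109 to 693 CPM with CCl4, and of 8 lymphocyte markers 3 fell (Cd3d, -0.64, among them), with sums of 3.87 to 11.7 CPM without and 2.00 to 7.62 CPM with CCl4. The part these cells play in the members' levels was not tested.

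The genes whose log2 CPM most resembled that of Alb across the 27 libraries were Mpnd (Pearson r = 0.86), Gchfr (0.85), Capn10 (0.85), Gnmt (0.85) and Gnptg (0.84). Those closest to the mean of the standardised levels of the 10 members were Higd2a (r = 0.85), Bin3 (0.85), Apoc3 (0.85), Apoe (0.84) and Vtn (0.84), of which the last 3 are themselves plasma proteins. The libraries share the 8 groups and a common scaling, so these values describe likeness only. With group means removed, Serpina1a and Serpina1b kept the closest tie of any pair of members (r = 0.88).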

How the data were processed

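The authors sequenced poly-A RNA of whole livers from 27 mice (NEBNext Ultra II Directional libraries, NextSeq500), trimmed reads with Trimmomatic 0.39, aligned them with HISAT2 to GRCm39 (Ensembl 105) and counted read pairs per gene with featureCounts. The deposited values are raw counts of 55414 genes. Multi-mapping pairs were not counted, which lowers genes with close copies. The HISAT2 version and the strand setting are not given in the sources used here. Groups came from the labels, which name no batch.

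The 14114 genes whose mean count over all libraries reached 10 entered one edgeR 4.0.16 quasi-likelihood fit of all 8 groups with TMM factors (R 4.3.3). P-values were Benjamini-Hochberg adjusted over all tested genes in each comparison, with a threshold of 0.05, and an SE is the absolute log2 fold change over the root of F. CPM are counts scaled to library depth with TMM factors, and intervals use the t distribution of the fit. Ratios were log2 count ratios (0.5 added), tested by exact permutation of mice within arms, with levels per kilobase from the GENCODE vM39 main transcript, a later annotation than the authors'. Shared 85-base stretches were counted in the same transcripts. Promoters came from RefSeq. Both tests were checked on simulated data. For the fit, 200 genes were changed, split evenly between log2 sizes of 0.5 and 1. In CCl4 against control it recovered 2 of the smaller and 38 of the larger changes. It missed most of both sizes, so a member that did not pass there may still differ. The fits used DESeq2 1.42.0 and limma 3.58.1 as alternatives, with other scalings and filters, a replicate block and leaving out each mouse.

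Named genes were the 10 members, the 5 most like Alb and the 5 most like their mean, Afp, Afm, Has2 and, of each list, the 2 genes with the smallest adjusted p in each direction of the averaged CCl4 effect. A few genes that this rule names are not reported here. The members and lists were chosen with earlier results of these data known. Nothing says which mice shared a cage or day, so p-values measure the spread between these mice. Within-group library pairs differed beyond sampling noise (34 pairs), so no library was counted as a duplicate.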

Additional observations from a re-analysis of the deposited data

Results flagged for a closer look

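The interaction of 4MU with CCl4, a test of whether the CCl4 effect differed with and without 4MU, was 1.14 for Alb and 1.04 for Ahsg on the log2 scale (edgeR). The CCl4 effect on Alb was -0.90 without 4MU and 0.24 with it, and that on Ahsg was -0.19 and 0.84. In CCl4 + siLuc-LNP, Serpina1c read 654 CPM in mouse 1, while the other 3 mice read 340 to 366 CPM, a gap of 0.915 of the range. Each of the 10 members was examined in this way in each group of 4 mice, which gave 40 sets of values. Of these sets 1 had such a gap, where chance gives about 5% of sets. The sets share mice, so they are not independent.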

How the results depend on the processing

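Counts of called members stayed within 1.5 times in 124 fits that left out a mouse and moved in 24, and stayed in 120 other alternatives and moved in 25. The 3 ratio calls were kept under every alternative, and the counts of 0 called members in 4MU or siLuc-LNP against control, siHAS2-LNP against siLuc-LNP with or without CCl4, and the siLuc-LNP and siHAS2-LNP interactions did not move. CCl4 against control called 3 members when the 2 groups were fitted alone, and 1 to 6 with a mouse left out. CCl4 + 4MU against 4MU called 1 to 2, CCl4 + siLuc-LNP against siLuc-LNP 1 to 2 and CCl4 + siHAS2-LNP against siHAS2-LNP 0 to 1 with a mouse left out, and the second of these called 2 with DESeq2, with DESeq2 size factors, with library totals alone, with TMM factors computed without the members, with no low-count filter, with filterByExpr and with the replicate block. The 4-arm average called 4 with library totals alone, 5 with no low-count filter, 3 over the 3 treated arms and 6 to 8 with a mouse left out. CCl4 + 4MU against CCl4 called 2 with library totals alone, 1 with no low-count filter, 1 for the groups alone and 0 to 4 with a mouse left out. CCl4 + siLuc-LNP against CCl4 called 1 with DESeq2 and 0 to 2 with a mouse left out, and CCl4 + siHAS2-LNP against CCl4 called 2 with DESeq2 and 0 to 2. CCl4 + 4MU against CCl4 + siHAS2-LNP called 1 for the groups alone. The 4MU interaction called 4 with DESeq2 and with limma, 1 with DESeq2 size factors, TMM factors without the members, no low-count filter, filterByExpr, the replicate block or its 4 groups alone, and 0 to 3 with a mouse left out.

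Signs turned in 4 values, none of them called. The averaged effect on Rbp4 was 0.0019 with library totals alone, the ratio of Serpina1e to Alb changed by -0.00297 without strata, and Serpina1a and Serpina1b changed by 0.0348 and 0.0603 over the other 4 copies in place of Alb. The cause was not tested in any of these cases.

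Replicate numbers are shared between groups but did not pair the mice: same-numbered libraries correlated at r from -0.37 to 0.39 after group means were removed, and 5 of 27 correlated best with their own number. With the replicate block the averaged effect on Ttr was -0.33 with an adjusted p of 0.0564 (edgeR), and in CCl4 + 4MU against CCl4 Alb was lost (0.78, adjusted p = 0.0676) and Serpina1a was called. The group given CCl4 alone had 2 mice, so with 1 left out the other is assumed to vary like the mice of the other groups. Depth did not limit the members, whose lowest count was 611.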
